A study of Mus musculus with 12 samples.

Results

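The 9 genes Cd22, Ms4a1, Cr2, Fcer2a, Blnk, Cd72, Fcrla, Fam129c and Cd40 encode B cell surface receptors and signalling proteins, and were chosen by symbol. All 9 were found among the 24444 gene symbols of each of the 2 deposited tables. RNA was sequenced from bone marrow cells of C57BL/6 mice in 4 groups of 3 libraries. The aged_KO group came from Hopx-knockout mice and the aged_WT group from Hopx wild-type mice, both labelled aged and 18 weeks old and neither labelled with MN1 overexpression. The MN1_KO group came from Hopx-knockout mice with MN1 overexpression and the MN1_WT group from Hopx wild-type mice with MN1 overexpression, both labelled 16 weeks old. The labels used here do not say how MN1 was overexpressed or whether marrow was pooled, and they give no batch. MN1 status, labelled age and deposited table coincide, so in any comparison of an MN1 group with an aged group they cannot be told apart. Nothing in the labels says more of the replicates than that they are separate samples, so a p-value measures the spread between these samples.

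B cells are made in the marrow, leave it as immature cells and return in part as mature recirculating cells. Their antigen receptor signals through kinases and the adaptor BLNK to phospholipase C. Surface partners set how strong that signal is: the complement receptors encoded by Cr2 raise it, and CD22 and CD72 lower it by recruiting a phosphatase. CD40 receives help from T cells. Blnk and Cd72 are switched on early in the lineage, whereas Cr2 and Fcer2a are marks of mature B cells.

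The promoters of 4 of these genes are shown because the genes behaved differently across the groups described below: Cd22 and Blnk were low in every knockout library, Cd72 was high in 1 of them, and Fam129c was lower in the knockout in the aged experiment by more than in the MN1 experiment. Each sequence holds 250 bases before and 50 bases after the transcription start annotated by RefSeq (build GRCm38.p6), read on the gene's own strand. In all, 7 of the 9 genes matched an entry of the promoter table, Fam129c under its newer symbol Niban3; Ms4a1 and Cd40 have none here. Capitals mark matches to any of 5 motifs searched on both strands: the EBF1 core (TCCC and GGGA parted by any 2 bases), ATGCAAAT (the octamer), GAGGAAGT (a PU.1 site), CAGGTG (an E-box) and an NF-kB site (GGG and TTTCC parted by any 2 bases).
Cd22, chr7:30878979-30879278, minus strand: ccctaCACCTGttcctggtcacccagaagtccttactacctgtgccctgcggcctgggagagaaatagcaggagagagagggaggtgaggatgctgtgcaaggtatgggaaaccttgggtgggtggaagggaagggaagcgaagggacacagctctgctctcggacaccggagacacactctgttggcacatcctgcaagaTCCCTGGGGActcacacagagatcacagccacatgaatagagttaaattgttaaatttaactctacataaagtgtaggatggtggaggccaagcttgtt
Blnk, chr19:40994172-40994471, minus strand: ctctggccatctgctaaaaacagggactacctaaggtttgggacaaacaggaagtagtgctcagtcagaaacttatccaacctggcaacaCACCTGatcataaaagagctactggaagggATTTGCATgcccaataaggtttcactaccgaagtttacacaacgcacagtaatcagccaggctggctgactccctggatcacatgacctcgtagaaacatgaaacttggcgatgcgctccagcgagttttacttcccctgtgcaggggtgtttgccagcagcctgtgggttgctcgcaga
Cd72, chr4:43454577-43454876, minus strand: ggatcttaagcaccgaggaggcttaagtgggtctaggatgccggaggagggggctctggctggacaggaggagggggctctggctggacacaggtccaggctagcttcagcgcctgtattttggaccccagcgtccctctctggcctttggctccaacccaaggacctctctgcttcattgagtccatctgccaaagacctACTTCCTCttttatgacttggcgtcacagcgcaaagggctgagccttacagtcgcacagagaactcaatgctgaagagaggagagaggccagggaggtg
Fam129c, chr8:71597458-71597757, plus strand: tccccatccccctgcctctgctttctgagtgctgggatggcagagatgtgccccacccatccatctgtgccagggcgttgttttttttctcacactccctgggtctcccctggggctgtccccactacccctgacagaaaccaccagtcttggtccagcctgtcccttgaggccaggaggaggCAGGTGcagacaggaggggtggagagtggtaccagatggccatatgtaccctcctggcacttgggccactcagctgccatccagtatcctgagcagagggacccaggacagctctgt

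The EBF1 core lay in the Cd22 promoter alone among the 7 genes, at bases -49 to -40 from the start, and 0.904% of all 32851 promoters of this length hold it. The octamer was found in Blnk at -130 to -123 (1.74% of all promoters) and the PU.1 site in Cd72 at -49 to -42 (3.2% of all promoters). The 7 genes have 9 annotated promoters, of which Fcer2a has 3. The E-box was in 6 of the 9, against 20.2% of all promoters, in 1 of those of Fcer2a, and at -67 to -62 in Fam129c. The NF-kB site was in 0 of the 9 and in 1.63% of all promoters. The marked stretches do not overlap one another. A match in these windows is a description of letters, and absence says only that the letters are not there.

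The targeted gene and the label MN1 were checked first. Library totals ran from 16544407 to 28409046 expected counts. Hopx stood at 0, 0 and 0.121 CPM (the count relative to the library total) in aged_KO replicates 3, 9 and 10, against 14.2 to 33.6 CPM in aged_WT, and at 2.92 to 3.51 CPM in MN1_KO, against 14.1 to 27.9 CPM in MN1_WT. Mn1 stood at 22.1 to 47.3 CPM in MN1_KO and at 36.4 CPM in MN1_WT replicate 3. It was at 0.395 and 0.16 CPM in MN1_WT replicates 2 and 4, which goes against their label; the aged libraries held 0.0704 to 1.18 CPM. Tests that rest on MN1_WT are therefore given with and without these libraries, and levels by library.

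In the aged experiment the comparison of knockout with wild-type marrow addresses the effect of losing Hopx. The B cell genes were lower in aged_KO: 8 of the 9 fell, by between 2.26 and 4.73 on the log2 scale, and Cd72 did not pass the test. In edgeR's quasi-likelihood test with Benjamini-Hochberg adjustment over 12771 genes and a threshold of 0.05, 31.4% of all genes changed, 15.8% falling and 15.6% rising. The median log2 fold change of the 9 genes was -3.87, against -0.02 over all genes tested. In bulk marrow, fewer B cells and less RNA per B cell cannot be told apart. In all 8 genes that fell, every aged_KO library lay below every aged_WT library, as it did for 38.4% of all genes on the same CPM scale.

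**Figure D1:**
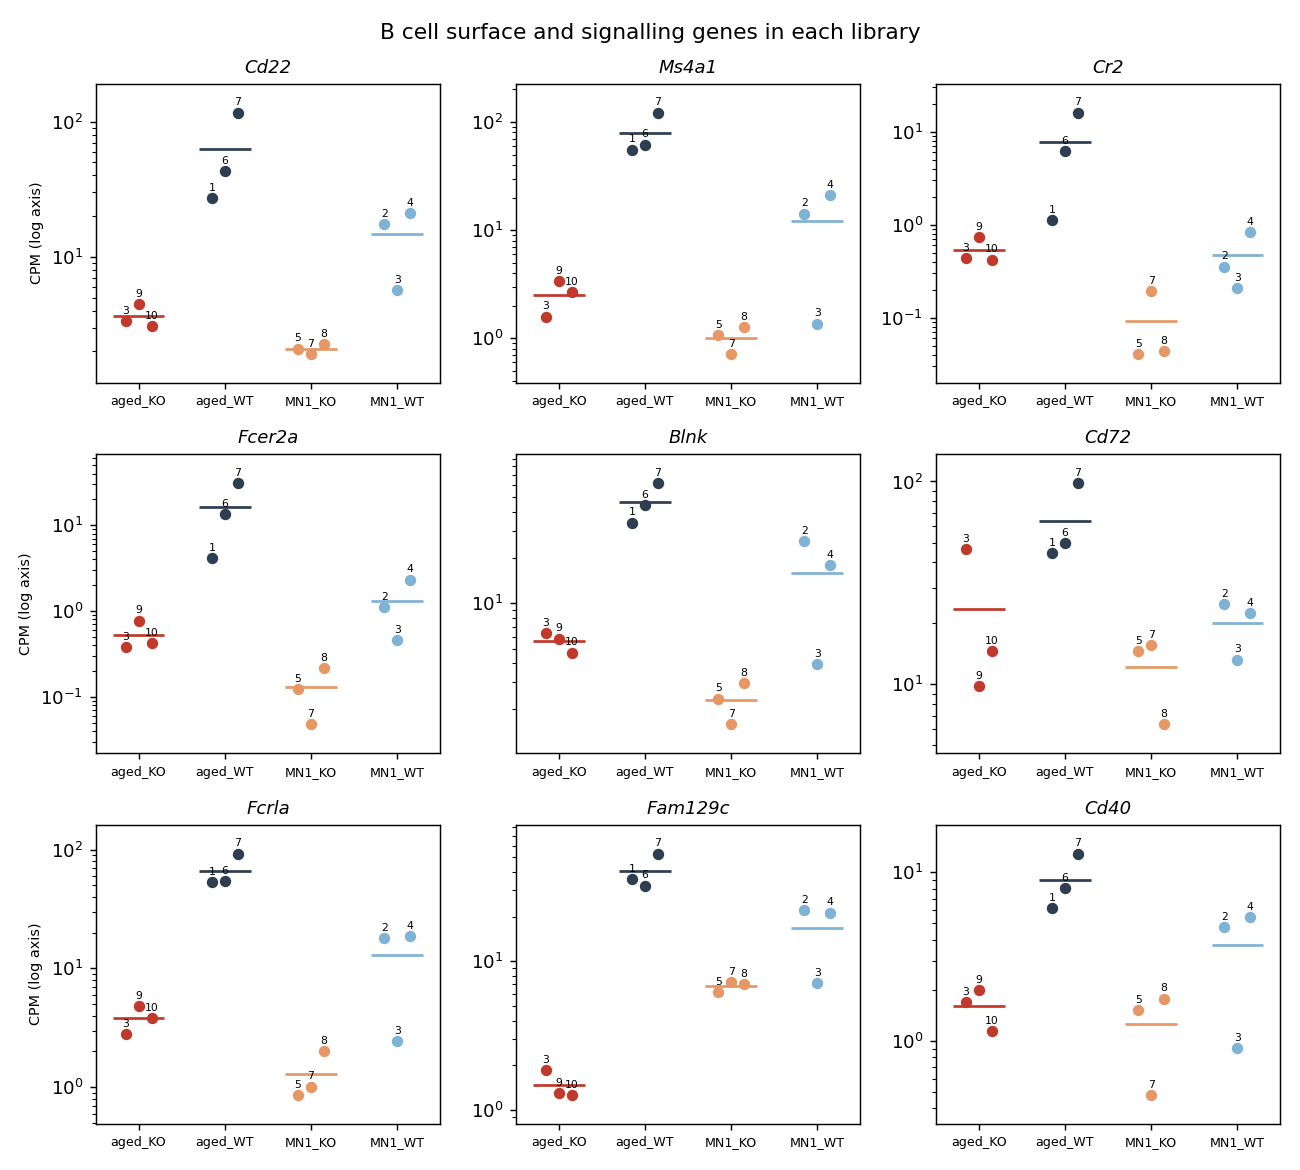
CPM (log axis) of each of the 9 genes in each library; points are libraries labelled with their replicate number, and lines are group means. All aged_KO points lie below all aged_WT points except for Cd72, where aged_KO replicate 3 stood at 46.3 CPM.

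Among the receptors that dampen the antigen receptor, Cd22 (chromosome 7, 30865402 to 30880342, minus strand, mm10) encodes a lectin that binds sialic acid. The transcript was at 3.35, 4.47 and 3.08 CPM in aged_KO replicates 3, 9 and 10, against 27.1, 43.1 and 117 CPM in aged_WT replicates 1, 6 and 7. The knockout libraries were alike, and replicate 7 was the highest of the wild types. Cd22 fell by 3.87 on the log2 scale, with a standard error (SE) of 0.65 over 3 and 3 libraries (edgeR adjusted p = 0.00967). Cd72 (chromosome 4, 43446462 to 43454628, minus strand), a lectin-like receptor, stood at 46.3, 9.79 and 14.6 CPM in aged_KO replicates 3, 9 and 10, against 44.2, 49.5 and 98.2 CPM in aged_WT replicates 1, 6 and 7. Replicate 3 of the knockout reached the wild-type range while the other knockout libraries did not. Its log2 fold change was -1.30 ± 0.63 (edgeR adjusted p = 0.176). Without aged_KO replicate 3 it was -2.18 and passed (edgeR adjusted p = 0.019). Tesk1, a kinase gene that overlaps Cd72 on the opposite strand, stood at 9.39, 7.29 and 6.59 CPM in aged_KO replicates 3, 9 and 10 and at 14.9 to 21.9 CPM in aged_WT, and so did not stand out in replicate 3 as Cd72 did. The kit was stranded, but whether the counting used strand is not given in the sources used here.

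The genes of mature B cells spread most widely within the wild type. Cr2 (chromosome 1, 195136811 to 195176716, minus strand) encodes both complement receptors of mouse B cells. It stood at 0.439, 0.739 and 0.423 CPM in aged_KO replicates 3, 9 and 10, against 1.13, 6.23 and 16.1 CPM in aged_WT replicates 1, 6 and 7. The lowest wild type was closer to the knockouts than to the highest wild type. Cr2 fell with a log2 fold change of -3.59 ± 1.00 (edgeR adjusted p = 0.0405), on 36 counts in aged_KO and 472 in aged_WT. That call was lost without any one of aged_KO replicates 3, 9 and 10 or aged_WT replicate 6 (edgeR adjusted p = 0.11, 0.105, 0.144 and 0.0979), and without a filter on low counts (0.0955). Without aged_WT replicate 7, the highest, the fold change of Cr2 was -2.55, that of Fcer2a -3.79 and that of Cd22 -3.07, all past the threshold. Fcer2a (chromosome 8, 3681737 to 3694175, minus strand), of the low-affinity IgE receptor CD23, stood at 0.384, 0.774 and 0.423 CPM in aged_KO replicates 3, 9 and 10, against 4.14, 13.4 and 31 CPM in aged_WT replicates 1, 6 and 7. The wild types took the same order as for Cr2. Fcer2a fell by 4.64 on the log2 scale (SE 0.89, edgeR adjusted p = 0.0131) and did not pass without aged_KO replicate 10 (edgeR adjusted p = 0.0687).

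The highest wild-type library exceeded the lowest 14.2-fold for Cr2, 7.49-fold for Fcer2a and 4.3-fold for Cd22, but between 1.64-fold and 2.22-fold for the other 6 genes. Replicate 7 was the highest wild type for all 9.

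Ms4a1 (chromosome 19, 11249675 to 11266241, minus strand) encodes CD20, a membrane protein found on B cells from the pre-B stage on. It stood at 1.59, 3.38 and 2.66 CPM in aged_KO replicates 3, 9 and 10, against 55.5, 61.8 and 122 CPM in aged_WT replicates 1, 6 and 7. The groups were far apart, and Ms4a1 fell by 4.73 on the log2 scale (SE 0.44, edgeR adjusted p = 0.00124). Its place among the 9 is close to those of Fcer2a and Fam129c, and depends on the libraries in the fit. Ranked from the lowest log2 fold change it was gene 31 of 12771. Blnk (chromosome 19, 40928927 to 40994535, minus strand), of the adaptor that links the kinase SYK to BTK and phospholipase C gamma 2, stood at 6.31, 5.84 and 4.71 CPM in aged_KO replicates 3, 9 and 10, against 34, 44.2 and 62.2 CPM in aged_WT replicates 1, 6 and 7. The spread within each group was small beside the gap. Blnk fell with a log2 fold change of -2.86 ± 0.22 (edgeR adjusted p = 0.000233).

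Fcrla (chromosome 1, 170917576 to 170927583, minus strand) encodes an Fc receptor-like protein that stays inside the B cell. It stood at 2.8, 4.79 and 3.81 CPM in aged_KO replicates 3, 9 and 10, against 53, 54.4 and 92.7 CPM in aged_WT replicates 1, 6 and 7, and fell by 3.91 on the log2 scale (SE 0.30, edgeR adjusted p = 0.000384). Fam129c (chromosome 8, 71597648 to 71607936, plus strand), also called Niban3 or Bcnp1, is a B cell gene whose protein is less well described. It stood at 1.87, 1.3 and 1.27 CPM in aged_KO replicates 3, 9 and 10, against 36, 32.4 and 53.1 CPM in aged_WT replicates 1, 6 and 7. Fam129c fell with a log2 fold change of -4.59 ± 0.23 (edgeR adjusted p = 4.94e-05). Pgls, a gene that overlaps it on the same strand, stood at 59.1 to 91.4 CPM in aged_KO and 91.8 to 102 CPM in aged_WT. Cd40 (chromosome 2, 165055627 to 165072948, plus strand), the receptor for T cell help that macrophages and dendritic cells also carry, stood at 1.7, 2.01 and 1.15 CPM in aged_KO replicates 3, 9 and 10, against 6.14, 8.04 and 12.9 CPM in aged_WT replicates 1, 6 and 7. It fell by 2.26 on the log2 scale (SE 0.32, edgeR adjusted p = 0.00166). With the spread taken from all 12 libraries, Cd40 did not pass (edgeR adjusted p = 0.073).

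The order of levels among the 9 genes was read from the authors' TPM, which are scaled for transcript length. Cd72 was the highest in 11 of 12 libraries and Cr2 the lowest in 11. The exceptions were aged_WT replicate 1, where Fcrla at 45.67 TPM passed Cd72 at 44.77 TPM, and MN1_KO replicate 7, where Fcer2a at 0.04 TPM was below Cr2 at 0.05 TPM; neither pair is far apart. Cd72 made up 79.6, 39.3 and 55.9% of the summed TPM of the 9 genes in aged_KO replicates 3, 9 and 10, against 22.8 to 24.2% in aged_WT. Ms4a1 made up 1.9, 9.41 and 7.11% in the same knockout libraries, against 19.5 to 20.6% in aged_WT.

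How the genes moved relative to the B cell receptor itself was described by dividing each gene's counts by those of Cd79b, a subunit of that receptor. In aged marrow Cd79b fell by 3.32 on the log2 scale (SE 0.31, edgeR adjusted p = 0.000899). Ms4a1 stood at 0.132, 0.242 and 0.173 counts per Cd79b count in aged_KO replicates 3, 9 and 10, against 0.535, 0.456 and 0.526 in aged_WT replicates 1, 6 and 7. Fam129c stood at 0.155, 0.0932 and 0.0827 in the same knockout libraries, against 0.346, 0.239 and 0.228. Fcrla had 0.233 to 0.343 in aged_KO and 0.399 to 0.511 in aged_WT. For these 3 genes the knockout ratios lay below the wild-type ratios without overlap. Cd40 stood at 0.142, 0.144 and 0.0748 counts per Cd79b count in aged_KO replicates 3, 9 and 10, against 0.0591, 0.0593 and 0.0556 in aged_WT replicates 1, 6 and 7, so its knockout ratios lay above those of the wild type without overlap. Cd72, at 0.7 to 3.85 in aged_KO and 0.365 to 0.426 in aged_WT, had the same order of groups. Cd22, Cr2, Fcer2a and Blnk had groups that overlapped on this ratio. The ratios carry no test and share their denominator. Cd79a, of the partner subunit, itself had lower ratios to Cd79b in aged_KO, at 0.393 to 0.695 against 0.926 to 1.21 in aged_WT. The ratios therefore depend on which subunit is the denominator, and Cd79a was not used as one.

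**Figure D2:**
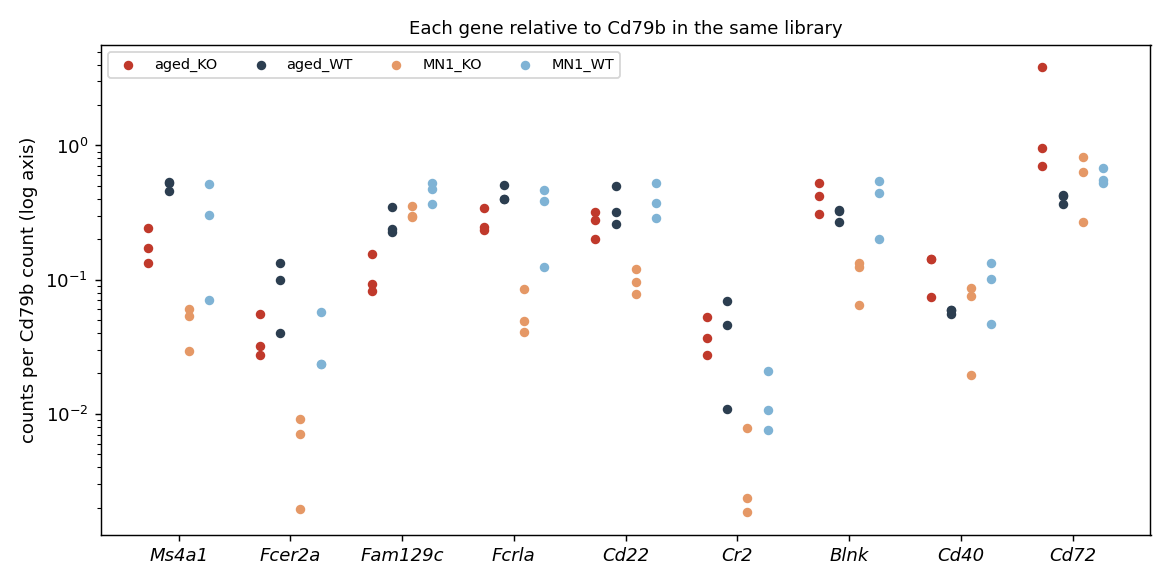
Counts of each gene per Cd79b count in the same library (log axis), ordered by the aged fold change; points are libraries, coloured by group. In aged_KO the ratio of Ms4a1, Fam129c and Fcrla lies below aged_WT and that of Cd40 and Cd72 above it. In MN1_KO the ratio of Fcer2a, Fcrla, Ms4a1, Blnk, Cd22 and Fam129c lies below MN1_WT. Cd79a, the partner of Cd79b, has lower ratios in MN1_KO too, at 0.176 to 0.236 against 0.35 to 1.31 in MN1_WT. The ratios therefore depend on the subunit used as denominator.

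Genes around the 9 in the same pathways were called in both directions, and the rises depended on the fit. Of 24 genes of the B cell receptor and its co-receptor, 7 rose and 7 fell in aged_KO, with a median log2 fold change of 0.15. Those that fell included the kinase gene Blk, at -4.34 (edgeR adjusted p = 0.0022). Vav1, a signalling gene used in many blood cells, rose by 0.54 (edgeR adjusted p = 0.00472). Of 14 inhibitory receptors and phosphatases, 3 rose and 4 fell, with a median of 0.07: Cd5 and Siglecg were at -2.12 and -1.05 (edgeR adjusted p = 0.00183 and 0.00348), and Pirb and Ceacam1, receptors of myeloid cells too, at 1.13 and 1.01 (edgeR adjusted p = 0.0011 and 0.00152). Of 18 genes of CD40 and TNF receptor signalling, 2 rose and 4 fell, with a median of -0.19. The receptor genes Tnfrsf13c, of the BAFF receptor, and Tnfrsf17 were at -3.74 and -2.28 (edgeR adjusted p = 0.000967 and 0.00386), and the adaptor genes Traf5 and Traf3 at -1.03 and 0.48 (edgeR adjusted p = 0.00677 and 0.0102). The share called in that last list was 33.3%, near that of all genes. With library totals in place of TMM scaling, 2 rose and 8 fell in the first list, 2 and 5 in the second, and 0 and 5 in the third, and the medians of the first 2 were -0.03 and -0.11. With the spread taken from all 12 libraries, 0 rose and 7, 1 and 3 fell, where 5.87% of all genes were called.

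The early and the late B cell list were both lower in aged_KO. Of 12 early B cell genes 11 were tested, of which 10 fell and 1 rose, with a median of -3.97. Igll1, of the surrogate light chain, was at -5.20 and Lef1 at -3.97 (edgeR adjusted p = 0.000144 and 0.000398), Cplx2 at -3.17 and Sox4 at -1.58 (edgeR adjusted p = 0.000121 and 0.000275). The summed level of the early list was 68.6 to 79.2 CPM in aged_KO and 223 to 296 CPM in aged_WT, and Vpreb2 was at 0 in aged_KO. Erg, the gene that rose, was the highest of the list in aged_KO. Its mean after TMM scaling was 61.96 CPM in aged_KO and 33.09 CPM in aged_WT. Of 20 genes listed as late, 14 fell and 1 rose, with a median of -2.52. The transcription factor genes Ebf1, Pax5 and Pou2af1 of that list were at -5.62, -5.50 and -3.08 (edgeR adjusted p = 0.000354, 0.000876 and 0.000389). These factors are not confined to late B cells, so their falls do not set late stages apart from early ones. The late list summed to 898 to 1130 CPM in aged_KO and 1450 to 1910 CPM in aged_WT. With the spread from all 12 libraries, 8 of the 12 early and 12 of the 20 late genes fell and 0 rose.

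Other cell types moved in the same libraries, and their part in the results was not tested. Neutrophil markers rose with 7 of 12 genes, 0 fell, and the list summed to 90200 to 111000 CPM in aged_KO and 71100 to 92200 CPM in aged_WT, with log2 fold changes of 0.84 for Lcn2 and 0.95 for Mmp9, named here as those of smallest p, as are the pairs in brackets below. T and NK cell markers fell with 10 of 11 (115 to 194 CPM in aged_KO against 192 to 267 CPM in aged_WT; Cd3g -2.26, Lck -1.90), plasma cell markers with 7 of 8 (436 to 586 CPM in aged_KO against 1230 to 1770 CPM in aged_WT; Irf4 -2.78, Sdc1 -2.52) and eosinophil markers with 7 of 9 (648 to 1470 CPM in aged_KO against 2730 to 5120 CPM in aged_WT; Epx -1.49, Prg3 -1.60). Nkg7, the 1 T and NK marker that was not lower, was the highest of its list. Its mean after TMM scaling was 134.3 CPM in aged_KO and 91.31 CPM in aged_WT, where that of Cd3g was 3.457 and 16.38 CPM. The T and NK sum therefore does not follow most of its genes. Erythroid markers fell with 6 of 8 (610 to 887 CPM in aged_KO against 1270 to 5850 CPM in aged_WT, with Gata1 at -1.43 and Klf1 at -1.51). Of the cells that can also carry Cd40 or Cd72, dendritic cell markers fell with 7 of 10 (83.4 to 208 CPM in aged_KO against 306 to 341 CPM in aged_WT; Bst2 -1.51, Clec9a -1.84), and monocyte and macrophage markers with 3 of 12 (1860 to 1960 CPM in aged_KO against 1790 to 2690 CPM in aged_WT; Mrc1 -2.28, Siglec1 -1.54). In aged_KO replicate 3, where Cd72 was high, the dendritic list stood at 208 CPM, the highest of the knockouts. Most of the spread of that list within aged_KO was that of Itgax, with a mean after TMM scaling of 56.44 CPM and an SD of 54.9. Its other genes had an SD of at most 10. In the monocyte and macrophage list C1qa and C1qb also spread widely in aged_KO, with an SD of 32.5 and 58.5 around 44.9 and 72.42 CPM. Which cells carried Cd72 was not tested. Of 6 markers of follicular dendritic cells, which also carry the receptors encoded by Cr2 and Fcer2a, 5 are in the tables and 2 were tested. These were Clu at 0.65 and Enpp2 at 0.47, and neither passed (edgeR adjusted p = 0.216 and 0.429); the list summed to 10.9 to 31.9 CPM in aged_KO and 14.1 to 14.8 CPM in aged_WT, with Sox9 at 0 in both and Madcam1 at 0 in aged_KO. With the spread from all 12 libraries, 9 of 11 T and NK cell markers and 6 of 8 plasma cell markers still fell, beside 7 of the 9 genes. In that fit 0 neutrophil and 0 eosinophil markers passed. There 2 dendritic, 2 erythroid and 2 monocyte and macrophage markers fell, and 1 of 3 follicular dendritic markers rose.

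The same contrast in the MN1 experiment addresses the effect of Hopx where MN1 is labelled as overexpressed. All 8 genes tested had lower mean levels in MN1_KO, with log2 fold changes of -0.83 to -3.67, but 0 of them passed, where 0% of the 13525 genes tested passed with edgeR. Cr2, with 6 counts in MN1_KO and 35 in MN1_WT, was too low to test. Of the 8, 6 were lower at an unadjusted p below 0.05, against 5.8% of all genes. DESeq2 called 5, all lower, where it called 4.18% of all genes. The median of the 8 was -2.87, against 0.03 over all genes. Every MN1_KO library lay below every MN1_WT library in 5 of the 8, against 8.33% of all genes.

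MN1_WT was divided. Ms4a1 stood at 1.07, 0.721 and 1.26 CPM in MN1_KO replicates 5, 7 and 8, against 14.2, 1.37 and 20.9 CPM in MN1_WT replicates 2, 3 and 4 (log2 fold change -3.67 ± 1.015, edgeR adjusted p = 0.291). Fcrla stood at 0.864, 1.01 and 2 CPM in MN1_KO replicates 5, 7 and 8, against 18, 2.45 and 18.8 CPM in MN1_WT replicates 2, 3 and 4 (-3.39 ± 0.91, edgeR adjusted p = 0.284). Blnk stood at 2.34, 1.59 and 2.96 CPM in the same knockout libraries, against 25.7, 3.94 and 17.8 CPM (-2.85 ± 0.77, edgeR adjusted p = 0.284). In each of these genes MN1_WT replicate 3, the wild type with much Mn1, lay just above the knockouts, and replicates 2 and 4 well above. Cd22 stood at 2.1, 1.92 and 2.26 CPM in MN1_KO replicates 5, 7 and 8, against 17.5, 5.65 and 21 CPM in MN1_WT replicates 2, 3 and 4 (-2.89 ± 0.59, edgeR adjusted p = 0.209). Fcer2a stood at 0.123, 0.0481 and 0.218 CPM, against 1.11, 0.457 and 2.32 CPM in MN1_WT (-3.32 ± 0.90, edgeR adjusted p = 0.284), on 9 counts in MN1_KO and 97 in MN1_WT. For both of these the groups did not overlap.

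Cd40, Cd72 and Fam129c overlapped between the groups. Cd40 stood at 1.52, 0.481 and 1.78 CPM in MN1_KO replicates 5, 7 and 8, against 4.74, 0.913 and 5.4 CPM in MN1_WT replicates 2, 3 and 4 (-1.61 ± 0.85, edgeR adjusted p = 0.62). Cd72 was at 14.5, 15.6 and 6.35 CPM, against 24.8, 13.2 and 22.4 CPM in MN1_WT (-0.83 ± 0.41, edgeR adjusted p = 0.593). Fam129c stood at 6.21, 7.26 and 7 CPM, against 22.1, 7.18 and 21.3 CPM in MN1_WT (-1.37 ± 0.51, edgeR adjusted p = 0.432). In each, MN1_WT replicate 3 lay within the knockout range. Cr2 was at 0.0411, 0.192 and 0.0435 CPM in MN1_KO replicates 5, 7 and 8, against 0.356, 0.208 and 0.841 CPM in MN1_WT replicates 2, 3 and 4. Its groups did not overlap, though MN1_KO replicate 7 came close to MN1_WT replicate 3.

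Summed over the 9 genes, the level was 28.8, 28.8 and 23.9 CPM in MN1_KO replicates 5, 7 and 8 and 129, 35.4 and 131 CPM in MN1_WT replicates 2, 3 and 4. The low sums were those of the libraries with much Mn1, and apart from MN1_WT replicate 3 the genotypes here also differ in Mn1. Without MN1_WT replicate 3, 6 of the 8 genes passed, all lower, with Cd22 at -3.31 and Ms4a1 at -4.21 (edgeR adjusted p = 0.0136 and 0.0155), and 896 genes, 6.49% of all, were called. Without MN1_WT replicates 2 and 4 together, which leaves 1 wild type and assumes that it varies like the other groups, 0 of the 9 passed, Cr2 being tested in that fit, with a smallest edgeR adjusted p of 0.706 and 0.28% of all genes called, and Fam129c and Cd40 were at 0.0485 and 0.605, above 0.

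**Figure D3:**
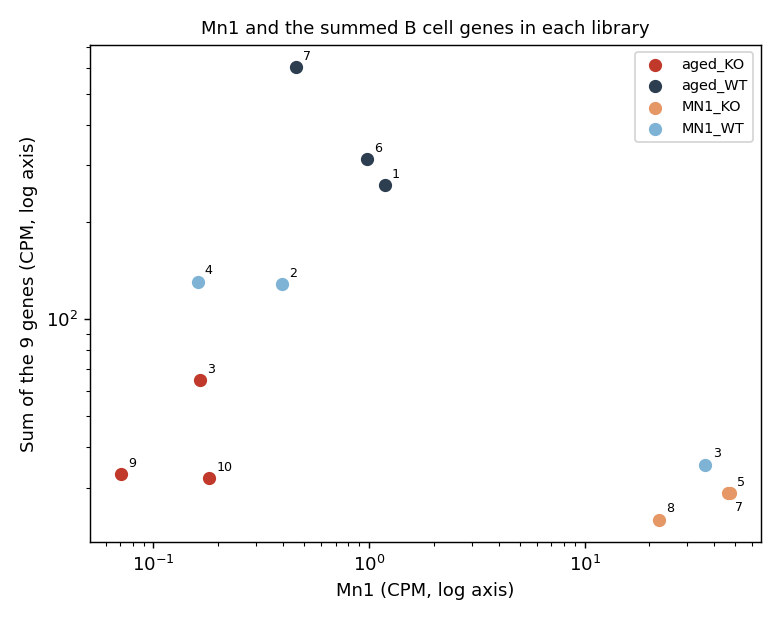
Summed CPM of the 9 genes against Mn1 CPM in each library (both axes log); points are labelled with their replicate number. The 4 libraries with much Mn1 have sums of 23.9 to 35.4 CPM, against 129 and 131 CPM in MN1_WT replicates 2 and 4 and 261 to 605 CPM in aged_WT; the aged_KO libraries are low in both.

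Lists around the 9 genes showed 0 genes past the threshold in the MN1 comparison. Median log2 fold changes were -0.30 for the B cell receptor list, -0.11 for the inhibitory list, -0.24 for the CD40 list, -2.45 for the early and -1.06 for the late B cell genes. Without MN1_WT replicate 3 these medians were -0.53, -0.21, -0.46, -3.01 and -1.58. In that fit 6 of 24, 2 of 13, 1 of 18, 5 of 12 and 9 of 20 genes fell, and 1 gene, in the B cell receptor list, rose. Of all genes 6.49% were called, and the share called in the CD40 list, 5.56%, was near that. Without MN1_WT replicates 2 and 4 the medians were 0.03, 0.33, -0.06, -0.85 and -0.29, and 0 genes passed. Cd79b stood at 17.6, 24.6 and 23.6 CPM in MN1_KO, against 47, 19.6 and 40.4 CPM in MN1_WT replicates 2, 3 and 4, and its partner Cd79a at 3.08, 5.24 and 5.57 CPM, against 61.4, 6.85 and 46.2 CPM. Per Cd79b count there were 0.176, 0.213 and 0.236 Cd79a counts in MN1_KO replicates 5, 7 and 8, against 1.31, 0.35 and 1.15 in MN1_WT replicates 2, 3 and 4. Within this experiment the ratio was thus lower in the libraries with much Mn1. The ratio was also lower in aged_KO, at 0.393, 0.695 and 0.665 in replicates 3, 9 and 10. In aged_WT replicates 1, 6 and 7 it was 0.926, 0.944 and 1.21, and both aged groups held little Mn1. Early B cell genes summed to 141 to 390 CPM in MN1_KO and 210 to 622 CPM in MN1_WT. Erg was the highest of them in MN1_KO, with a mean after TMM scaling of 125.8 CPM, against 112 CPM (SD 91.3) in MN1_WT. Igll1 stood at 1.32, 1.01 and 0.522 CPM in MN1_KO replicates 5, 7 and 8. Medians were negative for other cell types too: -2.065 for eosinophil, -1.49 for plasma cell, -1.27 for T and NK cell and -1.11 for monocyte and macrophage markers. Every MN1_KO library lay below every MN1_WT library in 6 of 9, 5 of 7, 7 of 11 and 4 of 12 of these, against 8.33% of all genes. Neutrophil and erythroid medians were -0.52 and -0.45, and that of 2 follicular dendritic markers was 0.60. Dendritic cell markers summed to 246 to 752 CPM in MN1_KO and to 153, 1180 and 129 CPM in MN1_WT replicates 2, 3 and 4. Flt3 was the highest of them, with a mean after TMM scaling of 284.7 CPM in MN1_KO and 206.2 CPM (SD 342) in MN1_WT. Of the 10 markers 7 had lower mean levels in MN1_KO and 3 higher, with a median log2 fold change of -1.18. Clec9a, for 1, had means of 1.417 and 3.565 CPM. The sum therefore does not follow most of its genes. The part of dendritic cells in the levels of Cd40, Cd72 and Fam129c was not tested.

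**Figure D4:**
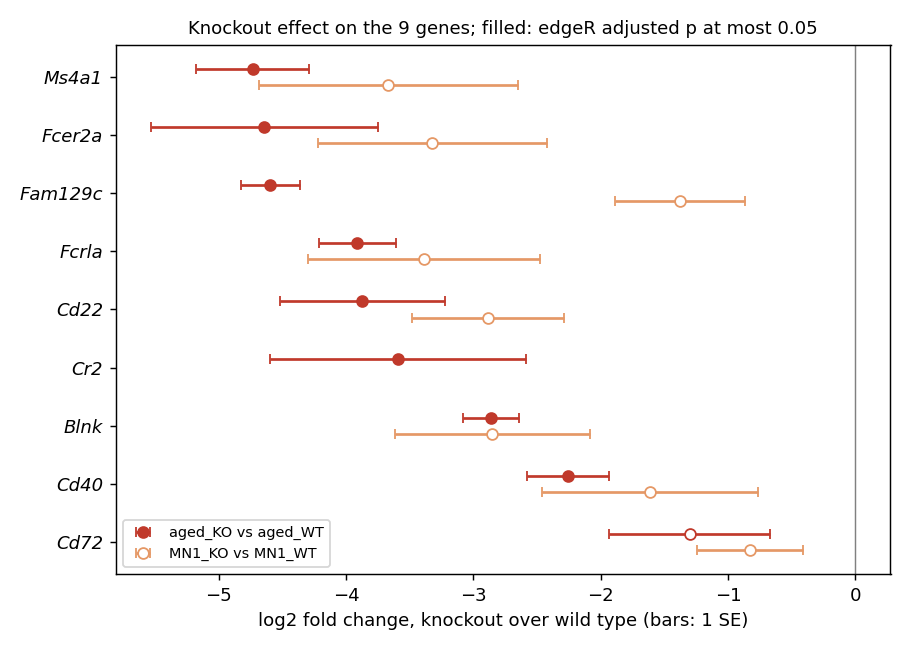
Log2 fold change of knockout over wild type with its SE (bars) for each gene, in the aged experiment (red) and the MN1 experiment (orange); filled points passed edgeR's test. Fam129c is at -4.59 in the aged and -1.37 in the MN1 experiment, and Cr2 has a point for the aged experiment alone.

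Comparing the knockout effects of both experiments in 1 fit of all 12 libraries, Fam129c differed: its log2 fold change was 3.22 ± 0.58 higher in the MN1 experiment (edgeR adjusted p = 0.0214). It was the 1 gene of the 9 that passed, where 1.41% of all 13937 genes passed in that direction. This comparison and those that follow reuse the same libraries and are not independent of the ones above. For the others the difference ran from 0.02 for Blnk (95% interval -1.96 to 2.00) to 1.36 for Fcer2a (-1.52 to 4.25), intervals that leave room for differences of several fold either way. The Fam129c call was lost without aged_KO replicate 3 or 9 or aged_WT replicate 6 or 7 (edgeR adjusted p = 0.056, 0.0662, 0.0543 and 0.0685). Without MN1_WT replicates 2 and 4 the Fam129c difference was 4.61 (edgeR adjusted p = 0.00862), that of Ms4a1 4.41 (0.0709) and those of the other 7 genes 1.22 to 3.12, and Fam129c again was the 1 gene that passed, with 0.273% of all genes called.

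MN1_KO against aged_KO, and MN1_WT against aged_WT, set marrow labelled with MN1 overexpression against aged marrow without it. Fam129c was higher in MN1_KO, at 6.21 to 7.26 CPM against 1.27 to 1.87 CPM in aged_KO, with a log2 fold change of 1.85 ± 0.43 (edgeR adjusted p = 0.00959); 21.1% of the 13937 genes rose in this comparison. Blnk fell to 1.59 to 2.96 CPM in MN1_KO, against 4.71 to 6.31 CPM in aged_KO (-1.64 ± 0.58, edgeR adjusted p = 0.0452), where 16.8% of all genes fell. That call was lost without any one of aged_KO replicates 3, 9 and 10 or MN1_KO replicates 5 and 7 (edgeR adjusted p = 0.096, 0.109, 0.0706, 0.114 and 0.132), without a filter on low counts (0.0523) and with library totals in place of TMM scaling (0.0671). The other 7 genes did not pass, with Cr2 and Fcrla nearest at edgeR adjusted p = 0.0509 and 0.0528.

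In wild-type marrow, all 9 genes had every MN1_WT library below every aged_WT library, against 13.4% of all genes. Of the 9, 2 passed, both lower, against 2.58% of all genes: Cr2 at 0.208 to 0.841 CPM in MN1_WT, against 1.13 to 16.1 CPM in aged_WT (-4.14 ± 0.90, edgeR adjusted p = 0.0345), and Fcer2a at 0.457 to 2.32 CPM against 4.14 to 31 CPM in aged_WT (-3.73 ± 0.79, edgeR adjusted p = 0.0319). Both calls were lost without aged_WT replicate 6 or 7 or MN1_WT replicate 2 or 3, where the edgeR adjusted p of the pair ran from 0.0522 to 0.129. Without MN1_WT replicate 3, Ms4a1 and Fcrla passed in their place (edgeR adjusted p = 0.0291 and 0.0375). The fold changes of Cr2 and Fcer2a were -3.09 and -2.88 without aged_WT replicate 7 and -4.92 and -4.51 without MN1_WT replicate 4. Without MN1_WT replicates 2 and 4, 8 of the 9 passed, all lower, with Cr2 at -5.47 and Fcer2a at -5.41, where 16.8% of all genes were called. With all libraries in the fit, the genes that did not pass ran from -1.37 for Fam129c to -2.79 for Ms4a1 (edgeR adjusted p = 0.0766 and 0.0637). In MN1_WT replicates 2 and 4, with little Mn1, the 9 genes summed to 129 and 131 CPM, against 261 to 605 CPM in aged_WT. The early B cell list held 210 to 622 CPM in MN1_WT, against 223 to 296 CPM in aged_WT, and the late list 689 to 1130 CPM in MN1_WT, against 1450 to 1910 CPM in aged_WT. The 622 CPM was that of MN1_WT replicate 3, where Sox4 stood at 152 CPM and Igll1 at 1.41 CPM. In MN1_WT replicates 2 and 4 Sox4 stood at 16.2 and 10.1 CPM and Igll1 at 37.5 and 10.3 CPM. Of the 12 early genes 9 had higher and 3 lower mean levels in MN1_WT, and 0 passed. The early sum alone therefore does not show the level of early B cells.

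The 5 genes whose profile over the 12 libraries lay closest to the mean profile of the 9 were Cd74 and H2-Aa of antigen presentation, Tnfrsf13c, the homing receptor gene Cxcr5 and Reln, a secreted glycoprotein gene, at a root mean square distance of 0.299, 0.429, 0.323, 0.344 and 0.463 on the centred log2 CPM scale. Of the 9 themselves, Cd22 at 0.283 and Blnk at 0.366 lay closest to that mean, of which each is a part, and Cd72 and Fam129c farthest, at 1.05 and 1.13.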

How the data were processed

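RNA was sequenced from mouse bone marrow in 12 libraries, prepared with a stranded mRNA kit per the labels' protocols. The authors deposited 2 tables of expected counts and TPM per gene symbol, made with RSEM 1.2.28 and Bowtie2 2.3.4.3 on mm10 per the submitters' processing notes; annotation, settings and strandedness of counting are not given in the sources used here. TPM as deposited served only to compare levels between genes. The 12 FPKM columns were not used. Expected counts were rounded, which touched at most 6.84% of genes in a library. Groups came from the sample titles. Genes were kept by filterByExpr (minimum count 10) and tested after TMM scaling in edgeR 4.0.16 (R 4.3.3; quasi-likelihood F test, robust, Benjamini-Hochberg, threshold 0.05); each knockout contrast used its own 6 libraries and the others 1 fit of all 12. The SE is the log2 fold change divided by the square root of F, and 95% intervals take the t quantile at the fit's degrees of freedom. CPM of single libraries are unscaled. Tables of different experiments were deposited separately. DESeq2 1.42.0, no filter, library totals, a shared spread and left-out libraries were tried. The fit was tested on simulated data. Coordinates are GENCODE vM21 (mm10). The 9 genes, the gene lists and the tests were chosen with earlier results of these data known. Genes were named by rule: the 9 genes, Hopx, Mn1, the tested genes of smallest p in the aged comparison (up to 4 of each pathway list, up to 2 of each marker list) and the 5 closest profiles. Cd79a, Tesk1, Pgls, Erg, Flt3, Itgax, C1qa, C1qb, Nkg7 and the markers at 0 are named outside that rule, after their values were seen. A gene that the rule selects is not reported here. Precision is limited by 3 libraries a group and, for Cr2 and Fcer2a, by few counts.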

Additional observations from a re-analysis of the deposited data

Results flagged for a closer look

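The knockout effect on Fam129c differed between the experiments: it was 3.22 higher on the log2 scale in the MN1 experiment than in the aged experiment (edgeR adjusted p = 0.0214), as a test of the difference itself showed. The gene stood at 1.27 to 1.87 CPM in aged_KO, against 32.4 to 53.1 CPM in aged_WT, and at 6.21 to 7.26 CPM in MN1_KO, against 7.18 to 22.1 CPM in MN1_WT. Over the 12 fits that left out 1 library the difference ran from 2.80 to 3.44, with an edgeR adjusted p of 0.000734 to 0.0685. Without MN1_WT replicates 2 and 4, whose Mn1 goes against their label, it was 4.61 (edgeR adjusted p = 0.00862).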

How the results depend on the processing

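In the aged comparison the count of 8 of the 9 genes past the threshold ran from 6 to 8 over the 6 fits that left out a library. It was 8 with DESeq2 and with library totals, and 7 without a filter and with the spread of all 12 libraries; that spread also reduced the pathway genes called to 30, all lower, where 52 were called with 38 lower (39 to 49 with a library left out). Library totals gave 46 pathway genes with 41 lower. Over all genes the 4008 calls became 818 with that spread, 2560 without aged_WT replicate 6 and 2402 without aged_WT replicate 7. In the MN1 comparison, where 0 passed, DESeq2 called 5 of the genes and 20 pathway genes, the spread of all 12 libraries 4 and 14, and leaving out a library 0 to 6 and 0 to 23. MN1_WT against aged_WT, with 2 called, gave 8 with DESeq2, 8 without MN1_WT replicates 2 and 4, and 0 to 2 with a library left out. MN1_KO against aged_KO, with 2 called, gave 7 with DESeq2, 1 without a filter, 1 with library totals, and 1 to 3 with a library left out. The difference of the knockout effects, with 1 called, gave 0 to 1. Over all genes, the 0 calls of the MN1 comparison became 565 with DESeq2, 464 with the spread of all 12 libraries and 896 without MN1_WT replicate 3; the 499 of MN1_WT against aged_WT became 1791 with DESeq2, 2465 without MN1_WT replicates 2 and 4 and 78 to 397 with a library left out; the 5281 of MN1_KO against aged_KO ran from 2515 to 7366 and the 463 of the difference from 53 to 3337 with 1 library left out, and the difference gave 40 without MN1_WT replicates 2 and 4 and 1685 by DESeq2. Directions turned for Fam129c (0.0485) and Cd40 (0.605) without MN1_WT replicates 2 and 4 in the MN1 comparison, and, in the difference of the knockout effects, for Blnk with DESeq2 (-0.0229), without a filter (-0.02002) and over left-out libraries (-0.49 to 0.53), and for Fcrla over left-out libraries (-0.052 to 0.89); none of these passed. Where not named, the cause was not tested. Library totals moved the median of all genes from -0.02 to -0.20 in the aged comparison, from 0.06 to 0.22 for MN1_WT, from 0.08 to 0.46 for MN1_KO against aged_KO and from 0.08 to 0.28 for the difference, and the share of calls that were higher from 49.6 to 23.6%, 28.1 to 39.9%, 55.6 to 79.8% and 42.3 to 61.2%. No paired analysis was possible because the groups compared share fewer than 2 replicate numbers.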
